A study of Mus musculus with 10 samples.

Results

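The collagen chain genes are the genes that encode the alpha chains of the collagens, and they were taken here as every gene whose symbol in the array annotation is Col, a number, the letter a and a number. This rule found 36 genes, read by 58 probe sets, among 12393 genes and 22626 probe sets that are not controls. Of these, 9 genes encode fibrillar chains, 6 encode type IV chains of basement membranes and 21 belong to the other collagens. A filter on low signals left 24 genes (8 fibrillar, 5 basement membrane, 11 other) in the tests, and the remaining 12 are described by their values only.

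RNA of the right ventricle was measured in 10 mice of strain 129SV, 1 array per mouse, to ask how hearts with 1 copy of plakoglobin (Jup), a protein of the cell contacts between heart muscle cells, respond to endurance training. The groups were 4 trained wildtype mice, 4 trained plakoglobin (+/-) mice, 1 untrained wildtype mouse and 1 untrained plakoglobin (+/-) mouse. The trained mice were 6 months old, 2 males and 2 females in each genotype, and swam in water at 35 °C, 6 times per week, for a time that grew from 5 to 90 min per day. The untrained mice were a pair of 10-month-old females, so age and training cannot be told apart, and neither untrained group has a replicate.

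Collagen chains are made in the endoplasmic reticulum, where prolines and lysines are hydroxylated, and wind by threes into a triple helix. The fibrillar chains (types I, II, III, V and XI) are secreted as procollagens, trimmed and packed into the fibrils that give tissue its tensile strength. In the heart, fibroblasts make most of the type I and III collagen that sheathes muscle bundles, and type V starts and limits the growth of those fibrils. Type IV chains form a sheet-like network under endothelium and around each heart muscle cell. The other collagens link these structures: type VI makes beaded filaments near basement membranes, type XIV decorates fibrils, and types XV and XVIII lie in or beside basement membranes and can release fragments with effects on vessels.

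The values are linear array signals, made by the authors, and a difference is given on the log2 scale, so that 1 means a doubling. A signal depends on its probes and was not compared between genes. Median signals lay between 898.1 and 1149.6 per array, and the number of arrays limits the precision. The Jup signal was 2928, 3207, 3996 and 4322 in the trained arrays labelled wildtype and 1992, 3520, 2230 and 2363 in those labelled plakoglobin (+/-). In the untrained pair it was 2387 in the array labelled wildtype and 3157 in that labelled plakoglobin (+/-), so Jup did not separate the arrays by genotype, and every genotype is given as labelled. The sources used here do not tell if the Jup probe set reads the altered stretch of the gene. GAPDH control probes read the 3' and the 5' end of 1 transcript, and their ratio reflects how intact and how fully copied the RNA was. This ratio stood above 2 on 3 arrays: 17.8 for wildtype female replicate 2, 2.98 for plakoglobin (+/-) male replicate 1 and 2.50 for wildtype male replicate 1, all trained. The other 7 arrays had 0.849 to 1.02. The heart muscle markers were all above the filter, 7 of 7, while 0 of 5 skeletal muscle markers were.

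The comparison of trained with untrained mice asked which collagens differ after training. No collagen gene passed the test (0 of 24; limma, Benjamini-Hochberg adjusted p under 0.05 over all probe sets), where 0.626% of all 13576 probe sets passed. The fitted log2 difference was nevertheless below 0 for 19 of 24 genes, with a median of -0.49, against -0.002 over all probe sets. At an unadjusted p under 0.05, 8 of 24 collagen genes were lower and 0 higher, where 3.73% of all probe sets were lower and 4.94% higher at that threshold. These 8 were Col3a1 and Col5a3 of the fibrillar chains, Col4a1 and Col4a2 of the basement membrane, and Col6a3, Col14a1, Col15a1 and Col18a1. By class, the median difference was -0.12 for the fibrillar chains (7 of 8 lower), 0.04 for the basement membrane chains (2 of 5 lower) and -0.68 for the other collagens (10 of 11 lower). The fit holds sex as a term, and since both untrained mice were female its estimate equals that of the 4 trained females against the 2 untrained females. The 4 trained males, set against the same untrained females, were lower for 15 of 24 genes by a median of -0.10. Without the sex term 17 of 24 were lower, by a median of -0.29. In that fit 0 of 24 passed (0.766% of all probe sets did) and 1 gene, Col14a1, had an unadjusted p under 0.05, where 3.3% of all probe sets were lower and 5.65% higher. With the 3 high-GAPDH arrays removed, 11 of 24 were lower and 0 higher at that threshold, where 5.83% of all probe sets were lower and 7.12% higher. The count of 8 was 2 without the untrained plakoglobin (+/-) mouse, 4 without the untrained wildtype mouse and 5 without trained wildtype replicate 4. The median was -0.31 without the untrained plakoglobin (+/-) mouse.

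Among the fibrillar chains, Col3a1 encodes the single chain of type III collagen, the partner of type I in heart fibrils. Its signal was 14388 in the untrained wildtype mouse and 15704 in the untrained plakoglobin (+/-) mouse. In the trained females it was 11503 and 6053 in wildtype and 6109 and 6488 in plakoglobin (+/-), so all 4 lay below both untrained females. In the trained males it was 18099 and 21453 in wildtype and 12925 and 25007 in plakoglobin (+/-), and these 4 reached from below to above the untrained mice. The log2 difference of training was -1.05 (SE 0.31; limma, adjusted p = 0.257). With the 3 arrays of high GAPDH ratio left out, 2 of them males, it was -1.30 (SE 0.15; limma, adjusted p = 0.00108), the only collagen gene to pass in that fit, in which 1.66% of all probe sets passed. Over 25 alternatives its limma adjusted p ran from 0.00108 to 1, and it passed in that 1 only. The second Col3a1 probe set read 1203 and 1438 in the untrained mice and 753, 580, 639 and 538 in the trained females, a log2 difference of -1.08 (SE 0.37).

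The promoters of Col3a1 and Col5a1 are shown because, by the brightest probe sets on all arrays, these fibrillar chains stood highest in trained males relative to trained females. By other choices a type I chain stood above Col5a1 (0.68): the second Col1a1 probe set gave 0.89, and with the 3 high-GAPDH arrays removed Col1a1 gave 1.13 and Col1a2 0.78, against 0.67 for Col5a1. Both windows are the 250 bases before the gene's start in RefSeq's table for build GRCm38.p6, 5' to 3' on the gene's plus strand, chr1:45311288-45311537 for Col3a1 and chr2:27886175-27886424 for Col5a1. Capitals mark every match, on either strand, to 3 short motifs: TATAAA, the letters of the TATA box that places the start of transcription, GGGCGG, the letters of the GC box, and CCAAT, the letters of the CCAAT box. No matches overlap in these windows.
Col3a1: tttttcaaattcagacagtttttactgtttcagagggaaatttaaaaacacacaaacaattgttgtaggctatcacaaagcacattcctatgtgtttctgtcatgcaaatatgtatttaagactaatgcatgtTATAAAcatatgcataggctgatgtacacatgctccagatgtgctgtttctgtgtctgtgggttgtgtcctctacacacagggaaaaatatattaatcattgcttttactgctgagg
Col5a1: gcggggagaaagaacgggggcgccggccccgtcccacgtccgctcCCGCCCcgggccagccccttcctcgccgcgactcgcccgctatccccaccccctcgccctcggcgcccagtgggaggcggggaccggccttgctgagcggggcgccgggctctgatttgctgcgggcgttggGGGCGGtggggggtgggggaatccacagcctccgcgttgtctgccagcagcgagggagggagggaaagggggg
The Col3a1 window held 1 match to the TATA box letters and the Col5a1 window 2 matches to those of the GC box. The Col3a1 match lies near the middle of the window, away from the start at its 3' end. Of 32851 windows of that length in the table, 12.4% held the TATA box letters, 32.7% those of the GC box and 33.8% those of the CCAAT box. Of 30 windows of 27 collagen genes found in the table, 5 held the first, 16 the second and 12 the last. These are matches of letters, and binding at these windows was not measured.

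The type I chains make up most of the fibrils in heart. Col1a2 encodes the chain present once in each type I trimer, and its signal was 5940 and 8280 in the untrained mice. The trained females read 7462, 6936, 5335 and 6064 and the trained males 6474, 8499, 7128 and 12579, overlapping the untrained mice in both sexes. The log2 difference of training was -0.13 (SE 0.28; 95% confidence interval -0.75 to 0.49). Col1a1 encodes the chain present in a pair in each trimer, and its brightest probe set read 3088 and 2522 in the untrained mice. Trained wildtype replicate 1 read 228 and trained plakoglobin (+/-) replicate 1 read 67, below the floor of 104, while the other 2 trained males read 3416 and 3459. The trained females read 1719, 1675, 1426 and 1574, all below both untrained females. The male arrays that read 228 and 67 also had the highest ratios of the 3' to the 5' actin control signal. These ratios were 3.05 and 2.65, against at most 1.29 elsewhere, and both arrays are among the 3 with a high GAPDH ratio. The second Col1a1 probe set read 1125 and 1166 on the same arrays, and from 204.5 to 1352 over all trained mice, so the low values were those of 1 probe set. The part of array quality in them was not tested. The log2 difference of training was -0.81 (SE 1.21) for the brightest and -0.20 (SE 0.58) for the second probe set, and neither passed. With the 3 high-GAPDH arrays removed, the brightest gave -0.82 (SE 0.23; limma, adjusted p = 0.121, the lowest over 24 alternatives, which reached 1).

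The type V chains are known to join in more than 1 combination. Col5a1 and Col5a2 encode the chains of the common type V trimer and Col5a3 a chain that can replace 1 of them. Col5a3 read 2607 and 2611 in the untrained mice and from 1152 to 2360 (median 1548) in the 8 trained mice, all below both untrained mice. Its log2 difference of training was -0.88 (SE 0.32; limma, adjusted p = 0.417). Among all probe sets, 4.61% had every trained mouse below both untrained mice and 4.63% above, and 2 of 24 collagen genes were below (Col5a3 and Col14a1) and 0 above. Col5a1 read 3565 and 3622 in the untrained mice and from 3033 to 6271 in the trained. Its log2 difference was -0.09 (SE 0.20), while that of Col5a2 was -0.06 (SE 0.22). Without the sex term both were above 0, at 0.25 (SE 0.28) for Col5a1 and 0.14 (SE 0.24) for Col5a2. The minor fibrillar chains Col11a1 and Col11a2, better known from cartilage, had -0.11 (SE 0.57) and 0.35 (SE 0.46).

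Of the basement membrane chains, Col4a1 and Col4a2 wind together into the type IV trimer found in nearly all tissues. Their genes lie head to head: in the RefSeq table, build GRCm38.p6, Col4a1 starts at position 11312826 of chromosome 8 on the minus strand and Col4a2 at 11312805 on the plus strand, so that their first 22 bases overlap on opposite strands. The Col4a1 signal was 14055 and 10626 in the untrained mice, 9993, 6846, 8330 and 7943 in the trained females and 9863, 12174, 11077 and 10504 in the trained males. All trained females lay below both untrained females, and 2 of 4 trained males lay between them. Col4a2 read 11861 and 14281 in the untrained mice, 9848, 9882, 8495 and 10604 in the trained females and 10723, 13083, 12595 and 10795 in the trained males. Here too every trained female lay below both untrained females. The log2 differences of training were -0.58 (SE 0.21; limma, adjusted p = 0.414) for Col4a1 and -0.43 (SE 0.19; adjusted p = 0.548) for Col4a2. For the chains of more restricted networks, best known from kidney and ear, the differences were 0.14 (SE 0.53) for Col4a3, 0.28 (SE 0.26) for Col4a5 and 0.04 (SE 0.45) for Col4a6, and they did not pass.

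Among the other collagens, Col18a1, whose chain carries the fragment endostatin, had the largest log2 difference of training, -1.60 (SE 0.49; limma, adjusted p = 0.296). Its signal was 970.6 and 1280.2 in the untrained mice, 387, 328, 625 and 228 in the trained females and 963, 1365, 885 and 1165 in the trained males. By this probe set the trained females lay below all other mice, while the males spanned the untrained values. The second Col18a1 probe set, under the filter and not tested, read 740.1 and 872.6 in the untrained mice. It read 286.5, 264, 898.6 and 272 in the trained females and from 509.1 to 676.1 in the trained males. Col15a1, its relative, read 2460 and 2486 in the untrained mice, 1546, 1918, 1429 and 1345 in the trained females and 1898, 2473, 2027 and 2207 in the trained males, with a log2 difference of -0.68 (SE 0.24; adjusted p = 0.387). Col14a1, of the fibril-associated type XIV, read 3380 and 3258 in the untrained mice and from 1810 to 2676 (median 2020.25) in the 8 trained mice, with no overlap in either sex. Its log2 difference was -0.74 (SE 0.23; limma, adjusted p = 0.312). The second Col14a1 probe set, under the filter and not tested, read 656.6 and 380.5 in the untrained mice. It read from 379.5 to 1264.2 in the trained mice, which overlapped the untrained. Of the type VI chains, which assemble as a trimer of 3 different chains, Col6a3 had -0.53 (SE 0.21; adjusted p = 0.473), Col6a2 -0.45 (SE 0.33) and Col6a1 -0.17 (SE 0.23). Col6a3 read 3732 and 4451 in the untrained mice, 2855, 2577, 3355 and 2567 in the trained females, all lower, and from 3676 to 4121 in the trained males. Col9a1 had -1.24 (SE 0.80) and Col8a1 -0.73 (SE 0.43), and Col7a1, of the anchoring fibrils, was the only one of the 11 in this class with a fitted difference above 0, at 0.68 (SE 0.43). The fitted values compare trained with untrained females, and without the sex term that of Col6a1 was also above 0, at 0.043 (SE 0.25).

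**Figure D1:**
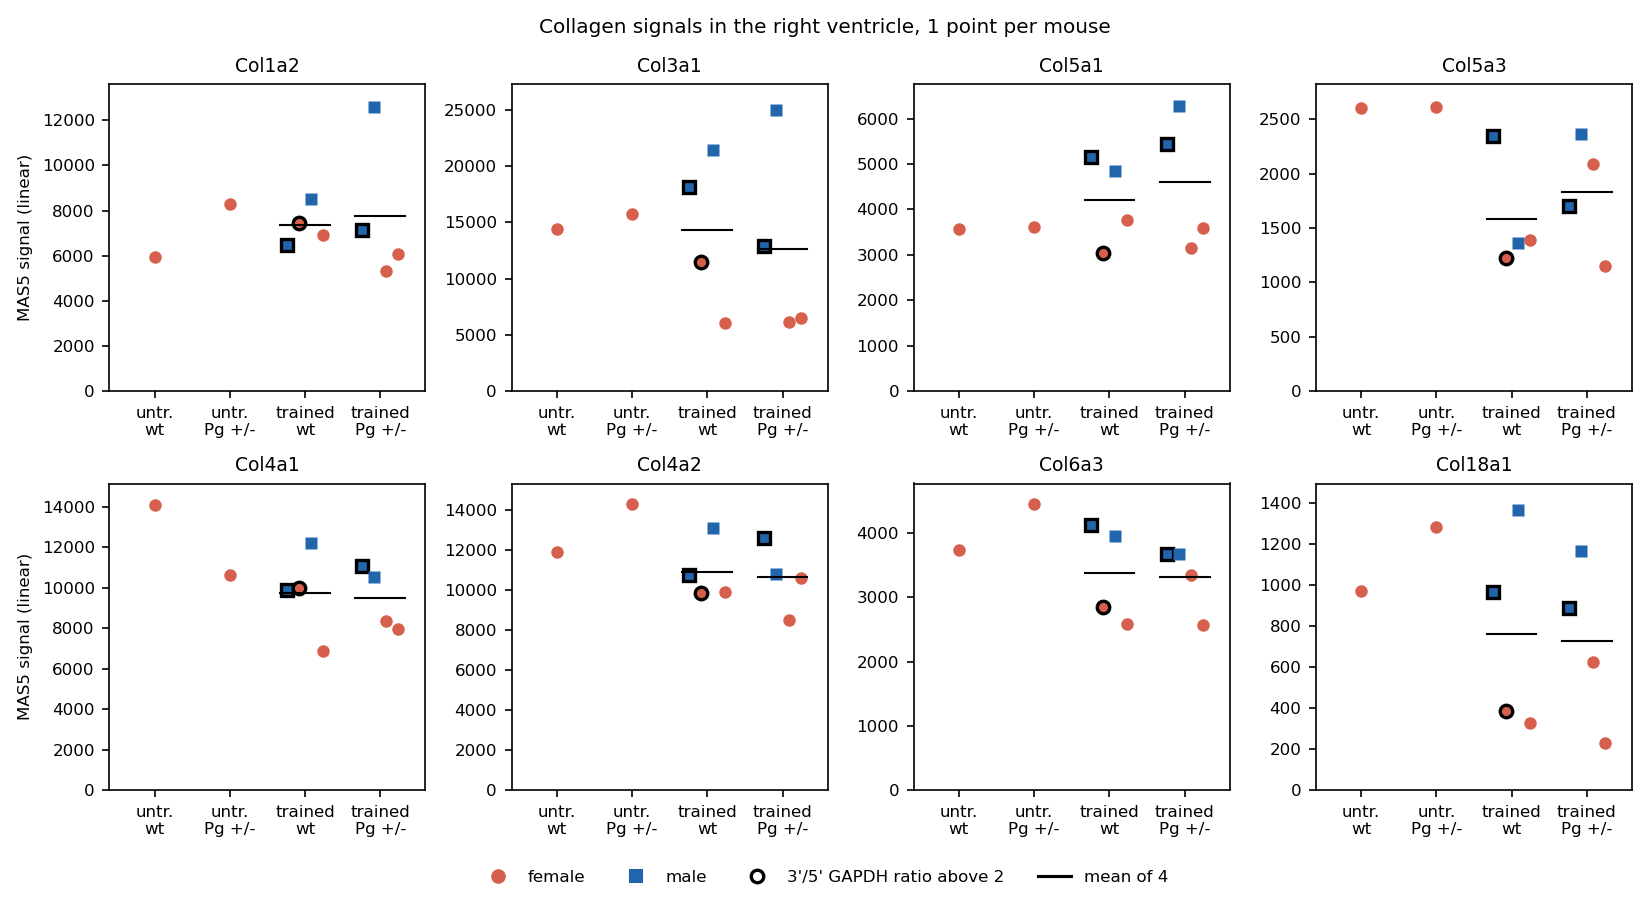
MAS5 signals (linear, y axis from 0) of 8 collagen genes in the 4 groups, 1 point per mouse, with circles for females, squares for males, black outlines for arrays with a GAPDH ratio above 2 and a bar at the mean of each trained group. For Col3a1 the 4 trained females read 6053 to 11503, below both untrained females at 14388 and 15704, while the trained males reached 25007.

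Markers of other cells were read beside the collagens. The summed signal of 8 leukocyte markers was 46986 to 47242 in the untrained and 20786 to 38993 in the trained mice. Of these 8 genes, 7 were lower, and Cd74, the chaperone of class II antigen presentation, was lower in the trained mice by 2.12 on the log2 scale (SE 0.27; limma, adjusted p = 0.00474). At an unadjusted p under 0.05, 5 of the 8 were lower and 0 higher, and in 4 every trained mouse lay below both untrained mice. The summed signal of 10 fibroblast markers overlapped, with 188613 to 217055 in the untrained and 174681 to 226834 in the trained mice, and 7 of 10 were lower. Most of that sum is the signal of Gsn and Dcn. At an unadjusted p under 0.05, 3 of the 10 were lower and 0 higher (Vim, Lum and Ddr2), and in 3 (Vim, Lum and Mfap5) every trained mouse lay below both untrained mice. Of all probe sets, 3.73% were lower and 4.94% higher at that threshold, and 4.61% had every trained mouse below both untrained mice. That of 8 endothelial markers was 31538 to 35829 against 29020 to 35742. Of 4 atrial markers the sum was 5736 to 6706 in the untrained and 20726 to 37330 in the trained mice, where Nppa, the atrial natriuretic peptide that stressed ventricles also make, was higher by 2.66 (SE 0.26; limma, adjusted p = 0.00112). Nppa makes up most of that sum. Myl4 overlapped, with 1905 and 1448 in the untrained and 1666 to 3234 in the trained mice, and Myl7 and Sln were under the filter. Of 4 lung markers the sum was 3966 to 4071 against 2298 to 4342, and Sftpb, a surfactant protein, was lower in every trained mouse (-0.73, SE 0.27; limma, adjusted p = 0.43). In such bulk RNA, fewer cells of a type and less RNA per cell cannot be told apart, and the part of these cells in the collagen signals was not tested.

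Males and females were compared within the 8 trained mice, 4 against 4, with genotype as a term. Again no collagen gene passed (0 of 24), where 0.0516% of all probe sets passed (0.0442% higher and 0.00737% lower in males). Signals were higher in males for 18 of 24 genes, and the median log2 difference was 0.41, against 0.01 over all probe sets. At an unadjusted p under 0.05, 7 of 24 were higher in males and 0 lower, where 4.06% of all probe sets were higher and 4.77% lower. The 7 were Col3a1, Col5a1, Col4a1, Col4a3, Col6a3, Col15a1 and Col18a1. With the 3 high-GAPDH arrays removed, 9 were higher and 1 lower at that threshold, where 4.68% of all probe sets were higher and 4.22% lower. With 1 mouse left out the number was 3 without trained wildtype replicate 3 or without trained plakoglobin (+/-) replicate 4, and 4 without trained plakoglobin (+/-) replicate 2 or without trained wildtype replicate 4. This comparison and the one of training share the 4 trained females, so a low value in those mice enters both.

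By class, the median difference between males and females was 0.40 for the fibrillar chains (5 of 8 higher in males), 0.28 for the basement membrane chains (3 of 5) and 0.45 for the other collagens (10 of 11). Every male lay above every female for 6 of 24 genes (Col3a1, Col5a1, Col5a2, Col4a2, Col6a3 and Col18a1), where 2.98% of all probe sets did so, and every female above every male for 0 of 24, where 2.91% did so. Col3a1 had a log2 difference of 1.38 (SE 0.26; limma, adjusted p = 0.197), and the male mean was 19371 ± 5140 (SD, n = 4) against 7538 ± 2650 in females (SD, n = 4). With the 3 high-GAPDH arrays removed, which leaves 2 males and 3 females, it was 1.92 (SE 0.16; limma, adjusted p = 0.00114) and passed, where 0.125% of all probe sets did. Over 19 alternatives its limma adjusted p ran from 0.00114 to 0.601, and it passed in that 1 only. Its second probe set gave 0.78 (SE 0.34), with every male above every female as well. Col5a1 read 5149, 4855, 5434 and 6271 in males and 3033, 3778, 3159 and 3593 in females, a log2 difference of 0.68 (SE 0.17; adjusted p = 0.473), and its next brightest probe set gave 0.38 (SE 0.20). Col18a1 had 1.56 (SE 0.45; adjusted p = 0.496). In its second probe set, not tested, the sexes overlapped, with 898.6 in 1 female against 509.1 to 676.1 in the males.

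For the type I chains the sexes were not separated in every probe set. Col1a2 had 0.39 (SE 0.24) by its brightest probe set, with overlap, and 0.65 (SE 0.25) by its second, in which all 4 males lay above all 4 females. Col1a1 had -1.13 (SE 1.05) by its brightest probe set, in which the low values of the 2 male arrays named above enter, and 0.89 (SE 0.49) by its second. With the 3 high-GAPDH arrays removed, the brightest gave 1.13 (SE 0.23), so its direction turned. Col4a1 gave 0.41 (SE 0.17) by its brightest and -0.03 (SE 0.20) by its second probe set. The summed leukocyte signal was 30828 to 38993 in the trained males and 20786 to 28619 in the trained females, with 8 of 8 markers higher in males, and that of the fibroblast markers was 198428 to 226834 against 174681 to 226402. Their part in the difference was not tested, and with no untrained male a sex difference before training was not measured.

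**Figure D2:**
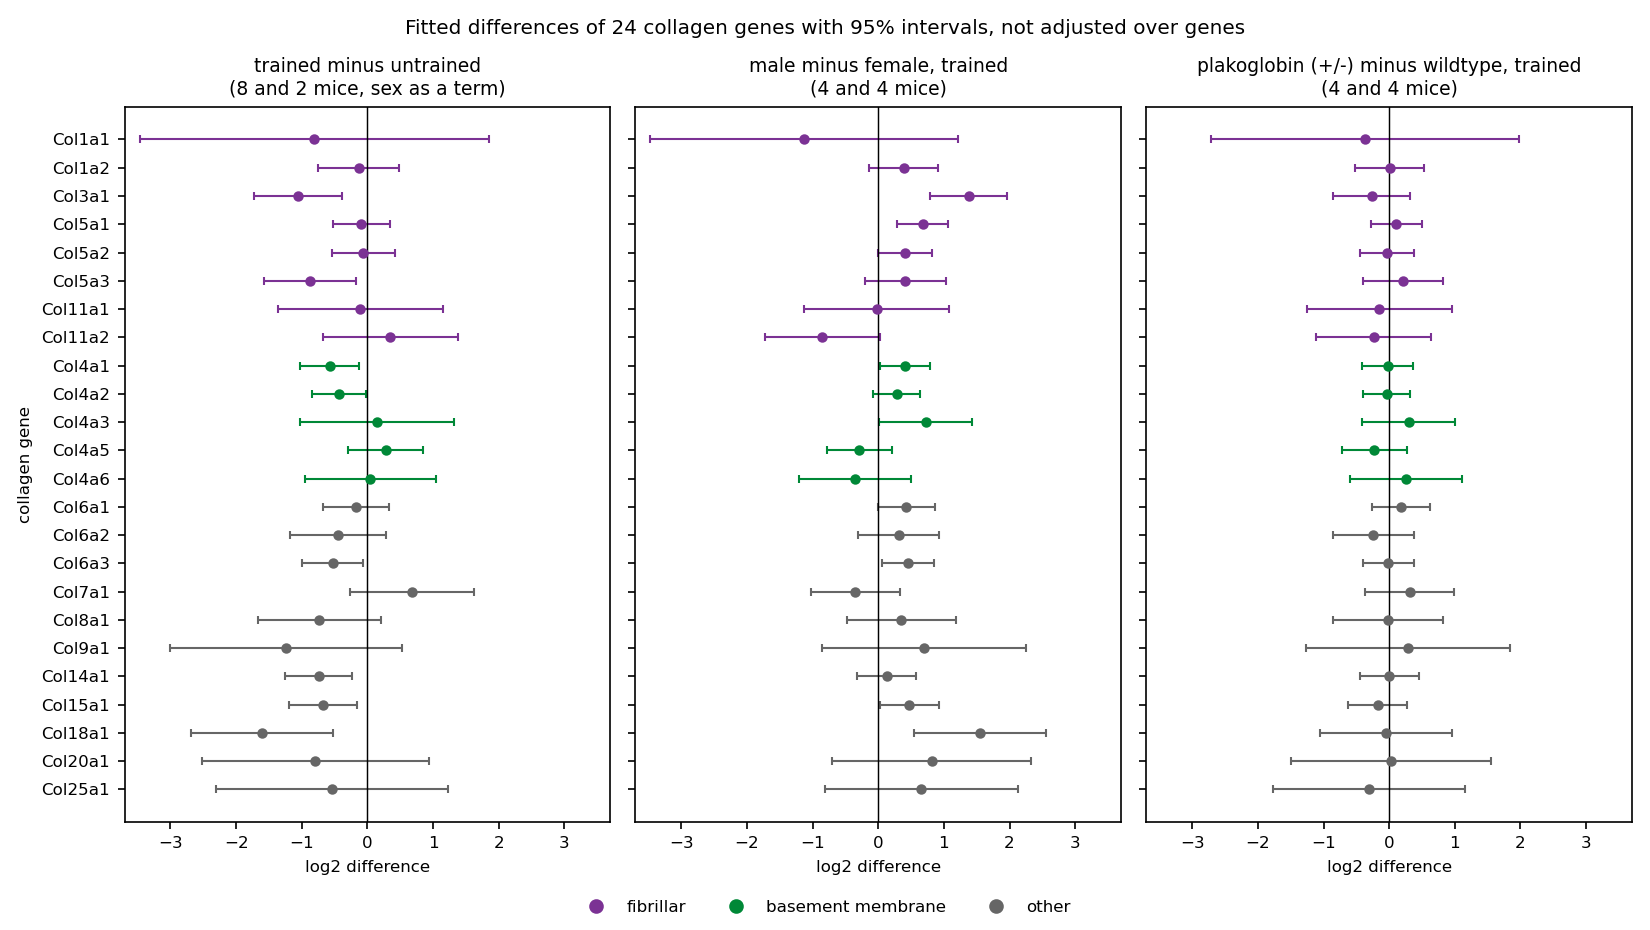
Fitted log2 differences (x axis) of the 24 tested collagen genes (y axis, coloured by class) for training, sex and genotype, with bars for 95% confidence intervals that are not adjusted over genes. Training differences lie mostly below 0 (19 of 24), sex differences mostly above 0 (18 of 24), and those of genotype around 0 (10 higher, 14 lower).

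Genotype was compared within the 8 trained mice, 4 plakoglobin (+/-) against 4 wildtype, with sex as a term. By limma 0 of 24 collagen genes passed and 0 of 24 had an unadjusted p under 0.05. Over all probe sets the share that passed was 0%, and 1.07% were higher and 0.943% lower at the unadjusted threshold. The median difference was -0.02, with 10 genes higher and 14 lower in plakoglobin (+/-) mice, and by class it was -0.09 for the fibrillar, -0.02 for the basement membrane and -0.01 for the other collagens. The 95% confidence interval of the difference ran from -0.85 to 0.31 for Col3a1 around -0.27, from -0.52 to 0.53 for Col1a2 around 0.01 and from -0.41 to 0.36 for Col4a1 around -0.02. It was wider for others, from -2.72 to 1.98 for Col1a1 and from -1.05 to 0.96 for Col18a1, and a decrease of 1 on the log2 scale lay inside both of these. By the brightest probe sets the fitted differences ran from -0.37 (SE 1.05) for Col1a1 and -0.31 (SE 0.66) for Col25a1 to 0.30 (SE 0.32) for Col4a3 and 0.31 (SE 0.30) for Col7a1. Second probe sets of Col4a5 (-0.47, SE 0.21), Col1a1 (-0.46, SE 0.49) and Col6a2 (-0.42, SE 0.41) lay below this range, and none lay above it. In that of Col4a5, 1 of 32 collagen probe sets tested, every plakoglobin (+/-) mouse lay below every wildtype mouse, where 0.796% of all probe sets did so. The brightest Col4a5 probe set gave -0.23 (SE 0.22), with overlap. Trained means of Col3a1 were 14277 ± 6866 in wildtype (SD, n = 4) and 12632 ± 8823 in plakoglobin (+/-) mice (SD, n = 4). The spread within each genotype was several times the difference, but it includes that between the sexes, which the fit holds as a term. The fitted difference of Col3a1 was -0.27 (SE 0.26).

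Whether the difference of training depended on genotype was asked with an interaction term, which rests on 1 untrained mouse of each genotype, assumed to vary like the others. No collagen gene passed (0 of 24), nor did any probe set (0%). With sex as a term, the fitted Col3a1 difference of trained from untrained mice was -0.85 in wildtype and -1.25 in plakoglobin (+/-) mice. The test of the difference between these fitted values gave -0.40 (SE 0.58). Over both sexes the trained means were 14277 in wildtype and 12632 in plakoglobin (+/-) mice, against 14388 and 15704 in the untrained mouse of each genotype. At an unadjusted p under 0.05 there was 1 gene, Col4a3, a chain of the kidney-type network, where 1.23% of all probe sets were lower and 1.97% higher. Its interaction was -2.22 (SE 0.72; limma, adjusted p = 1), and it read 270 in the untrained wildtype and 1542 in the untrained plakoglobin (+/-) mouse, against 517 to 1266 in the trained mice. The value thus rests on the distance between the untrained mice, which has no replicate. Between these mice, 17 of 24 collagen genes were higher in the plakoglobin (+/-) mouse, by a median of 0.20 against -0.01 over all probe sets.

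The probe sets of a gene were compared where more than 1 was tested, which held for 8 genes. The sign of the difference was the same in 6 of 8 genes for training, where Col1a2 and Col5a1 differed, and in 6 of 8 for sex, where Col1a1 and Col4a1 differed. For genotype it was the same in 6 of 8, where Col1a2 and Col3a1 differed. For Col1a2 the second probe set gave 0.32 (SE 0.30) for training against -0.13 for the brightest, and it read 1055 and 1018 in the untrained mice and from 837 to 2194 in the trained. The part of the transcript that each probe set reads was not examined here.

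**Figure D3:**
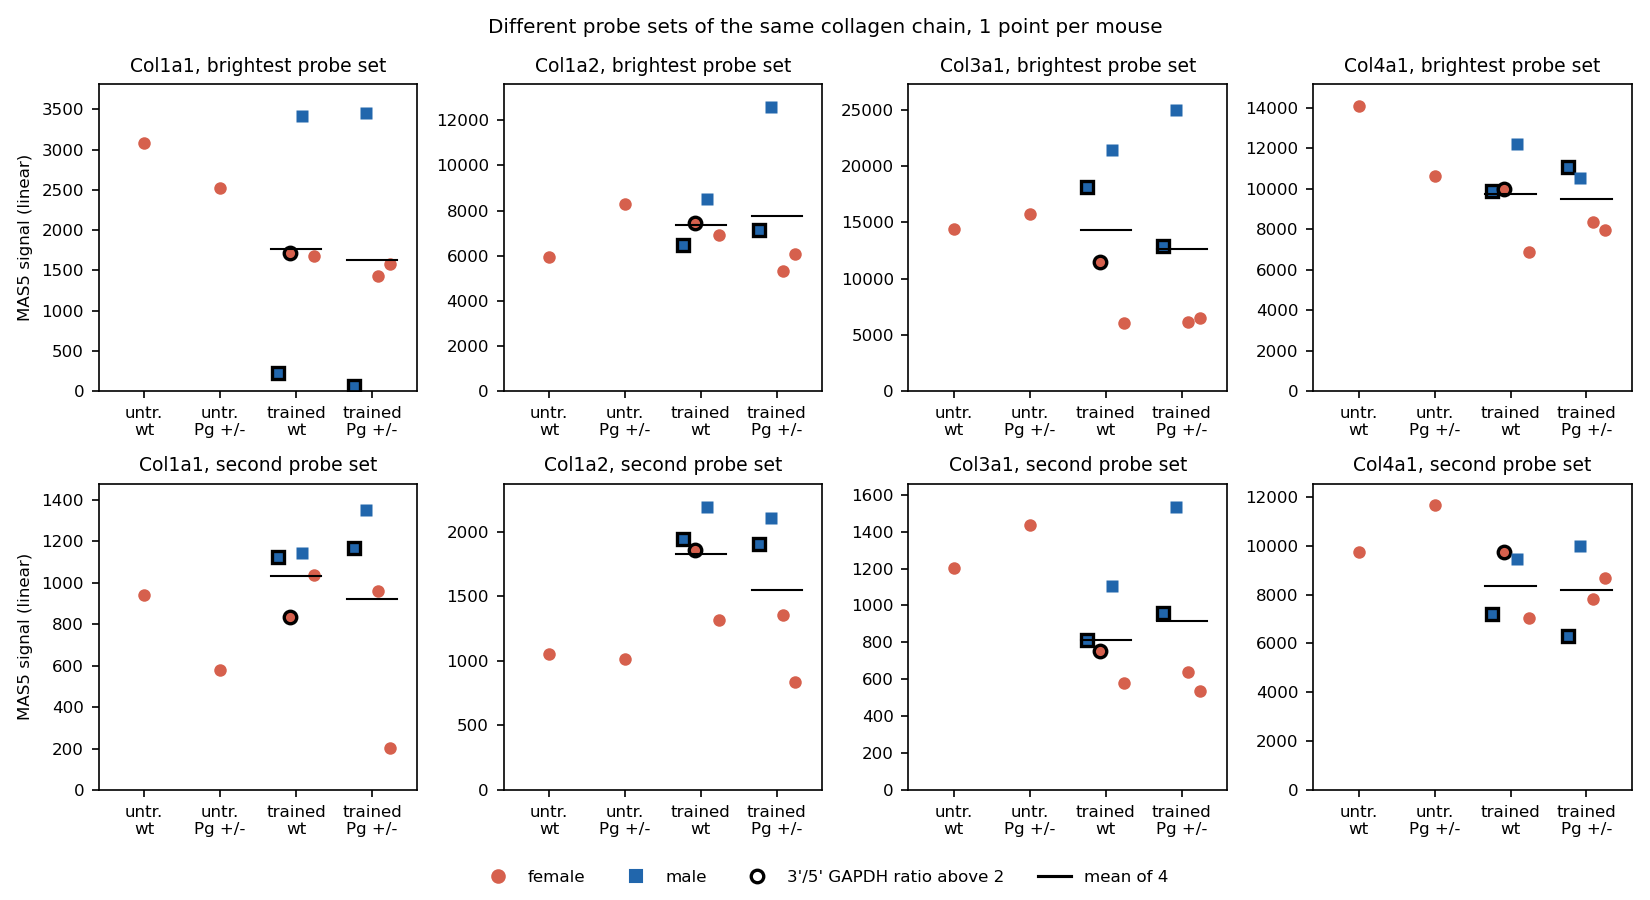
MAS5 signals (linear, y axis from 0) of the brightest and the second probe set of Col1a1, Col1a2, Col3a1 and Col4a1, 1 point per mouse, with symbols as in the plot of collagen signals by mouse. The brightest Col1a1 probe set reads 228 and 67 on a pair of male arrays that the second reads at 1125 and 1166, while both Col3a1 probe sets put every trained male above every trained female.

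Chains that wind into 1 trimer were compared across the 8 trained mice, in 6 pairs set by known trimers or fibrils, of which 3 could be read. For Col4a1 and Col4a2 Pearson's r was 0.70 (exact permutation p = 0.0533, 0.107 after adjustment over the 6 pairs) and Spearman's rho 0.74 (exact permutation p = 0.0458, adjusted 0.104). Without the 2 mice farthest from the median of Col4a1, r was 0.96, and with the second Col4a1 probe set it was -0.03, so the relation rests on the probe set chosen. For Col6a1 and Col6a3 r was 0.74 (exact permutation p = 0.0257, adjusted 0.104) and rho 0.86 (exact permutation p = 0.0107, adjusted 0.0643), and r was 0.93 without the 2 farthest mice. For Col6a1 and Col6a2 r was 0.42 (exact permutation p = 0.313, adjusted 0.415) and rho 0.29 (exact permutation p = 0.501, adjusted 0.501), and 0.59 without the 2 farthest mice. None passed after adjustment. No r is given for the pairs with Col1a1, whose signals form separate clusters, or for Col5a1 with Col5a2, in both of which the sexes are apart. The sexes are also apart in Col4a2 and in Col6a3. With the mean of each sex removed, r was 0.27 for Col4a1 with Col4a2, 0.35 for Col6a1 with Col6a3 and 0.23 for Col6a1 with Col6a2, each lower than over the pooled sexes. Array quality is shared by the points as well.

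Genes that modify, cut, crosslink, assemble, bind and break down collagen were described as lists beside the chains, and none of their 55 tested members passed in any of the comparisons. For training 6 of 55 were higher and 6 lower at an unadjusted p under 0.05, 10.9% each way, where 4.94% of all probe sets were higher and 3.73% lower. For training, the enzymes and chaperones of chain modification and folding were lower for 10 of 14 tested, by a median of -0.26, and 1 (7.14%) had an unadjusted p under 0.05, a share near the 8.68% of all probe sets in either direction. That was Serpinh1, the chaperone HSP47 that binds folded procollagen: it read 15428 and 16857 in the untrained mice and from 9512 to 14467 in the trained, all lower, a log2 difference of -0.49 (SE 0.20; limma, adjusted p = 0.494). Among fibril assembly partners 6 of 9 were lower, by a median of -0.28, led by Postn, the matrix protein periostin (-1.35, SE 0.38), and Lum, the fibril-binding proteoglycan lumican (-0.56, SE 0.21). Of 5 collagen receptors tested 4 were lower, with Ddr2 of fibroblasts at -1.81 (SE 0.63), while Ddr1, its relative in epithelial and other cells, had 1.04 (SE 0.26). As for the chains, the fitted values of training in these lists compare trained with untrained females. Ddr2 read 1397 and 1433 in the untrained mice, from 212.5 to 1072.6 in the trained females and from 902 to 2576 in the trained males.

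The basement membrane partners were lower for 6 of 10, by a median of -0.17, with the proteoglycan Agrn at -1.62 (SE 0.57) and the laminin chains Lamb2 and Lama2 at 0.74 (SE 0.27) and 0.56 (SE 0.19). Agrn read 291 and 235 in the trained plakoglobin (+/-) females, from 965 to 1737 in the other trained mice and 1294 and 2041 in the untrained. The low values of these females enter its differences of sex and genotype as well. Crosslinking enzymes went both ways (2 of 4 lower), with Lox, which oxidises lysines of the fibril, at 0.65 (SE 0.33). Of the procollagen cleavage genes 3 of 4 were lower, and Furin, a protease that activates proproteins, had 0.59 (SE 0.22). In the degradation list 5 of 9 were lower, with a median of -0.02. Its largest differences were upward and belonged to inhibitors of matrix proteases, Timp4 with 1.59 (SE 0.39; limma, adjusted p = 0.14) and Timp3 with 1.35 (SE 0.35; adjusted p = 0.18), while the membrane-bound collagenase Mmp14 had -0.78 (SE 0.32). Timp3 read 3772 and 2044 in the untrained and from 4172 to 10129 in the trained mice, without overlap.

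Between trained males and females the medians of these lists lay between 0.01 and 0.22. At an unadjusted p under 0.05, 6 of 55 members were higher in males and 2 lower (10.9% and 3.64%), where 4.06% of all probe sets were higher and 4.77% lower. The higher ones were Postn (1.15, SE 0.31), Sparc, a collagen-binding matrix protein (0.53, SE 0.16), Colgalt1, which adds galactose to hydroxylysine (0.52, SE 0.17), Nid1, which links laminin to type IV collagen (0.53, SE 0.21), Agrn (1.18, SE 0.44) and Ddr2 (1.84, SE 0.55). Lower in males were the collagen-binding integrin chain Itgb1 (-0.98, SE 0.38) and Timp4 (-0.76, SE 0.33). Itgb1 read 4516 and 3814 on the male arrays of high GAPDH and actin ratio, 14014 and 8048 in the other males and from 10138 to 16449 in the trained females. The highest Timp4 signal, 12463, was that of the female array with a GAPDH ratio of 17.8. The part of array quality in both was not tested. Postn read 2814, 1944, 2039 and 2204 in the males and 1443, 1067, 1271 and 518 in the females, with no overlap, and 2281 and 2853 in the untrained females. By genotype, Bmp1, the protease that removes the C-terminal propeptide, had 0.83 (SE 0.28) and Pcolce, its enhancer, -0.41 (SE 0.17), both without overlap between the genotypes, and Agrn had -1.13 (SE 0.44). Of 55 members 1 was higher and 2 lower at an unadjusted p under 0.05, where 1.07% of all probe sets were higher and 0.943% lower, and 1 was apart in each direction, where 0.803% of all probe sets were apart and higher and 0.796% apart and lower.

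**Figure D4:**
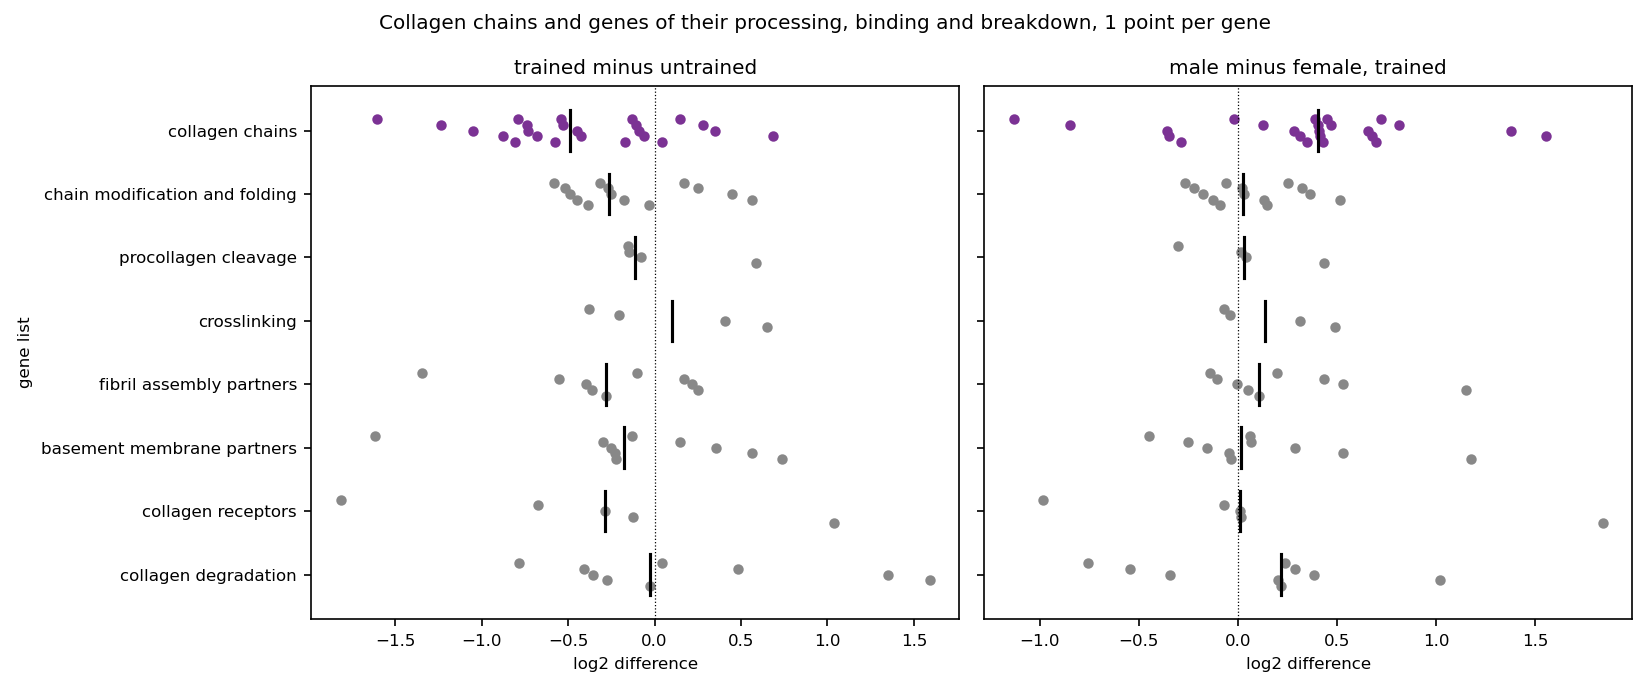
Fitted log2 differences (x axis) for training and for sex in trained mice of the collagen chains and of 7 lists of genes for their processing, binding and breakdown (y axis), 1 point per gene and a bar at the median of each list. The chains have medians of -0.49 for training and 0.41 for sex, and Timp4 (1.59) and Timp3 (1.35) are the highest points of the degradation list for training.

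The 12 collagen genes that did not pass the filter were Col2a1, Col4a4, Col9a2, Col9a3, Col10a1, Col12a1, Col13a1, Col16a1, Col17a1, Col19a1, Col22a1 and Col26a1. They include the cartilage chains Col2a1, Col9a2 and Col9a3, the skin chain Col17a1 and the growth plate chain Col10a1. Their median signals lay between 51.25 and 618.6, and the Col9a2 probe set was at or under the floor of 104 in all 10 mice, Col17a1 in 8 of 10. Col12a1, a fibril-associated chain, read 2809.8 in trained wildtype replicate 3 against a median of 213.25 over all mice. A low signal on such an array is no measure of absence.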

How the data were processed

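The deposited values are array signals on a linear intensity scale. The authors computed them with MAS5 5.0, per the submitters' processing notes. Every array had been scaled to 1 common level: the mean without the lowest and highest 2% of values is the same on all. Detection calls were not used here. Signals under 104, which is percentile 10 of the table, were set to that floor before the log2 step. The 64 control probe sets were set aside, and 13576 probe sets whose mean log2 signal reached percentile 40 entered the test with limma 3.58.1 in R 4.3.3 (lmFit, then eBayes with an intensity trend; two-sided; Benjamini-Hochberg over all of them; threshold 0.05). A gene is its brightest probe set with 1 symbol in the array annotation (20393 probe sets have 1 symbol and 691 several).

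Replicates were numbered in record order. Littermates are not marked per mouse in the labels, and no pairing was fitted. The interaction term and training comparison use all 10 mice, sex and genotype the 8 trained. Correlations were taken on log2 signals. The fits and permutation tests were checked on simulated data.

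The members, lists and alternatives were chosen with earlier results of these data known. Named genes are any gene past the threshold, a fixed set of 12 chains, the 4 largest differences in each direction per comparison, and 2 members per list; further ones were named after their values were seen. Alternatives were other normalization, floor, filter, variance model, probe set rule, covariates and subsets of mice, each mouse left out, and, chosen after seeing the data, the 2 arrays of high actin ratio left out and, for correlations, the mean of each sex removed.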

Additional observations from a re-analysis of the deposited data

How the results depend on the processing

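Of 1431 recomputed values of 70 gene results, 72 had the opposite sign. Of these 67 belong to the 38 results whose reported value lay within 1 SE of 0, such as Col1a1 by genotype (-1.34 to 0.68 with each mouse left out) and Col4a3 for training (-0.96 to 1.25). The other 5 were Col6a2 (0.045) and Col7a1 (-0.10) for training in wildtype mice only, Col3a1 by genotype (0.13) without the 3 arrays of high GAPDH ratio, and Col1a1 by sex (1.13 without these 3, 1.11 without the 2 of high actin ratio). The cause was not tested.

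For training the median of the collagen genes was -0.16 without the filter (36 genes), -0.31 with the median over all probe sets of a gene and -0.29 without the sex term. It was -0.36 in wildtype mice only and -0.65 in plakoglobin (+/-) mice only. With each mouse left out it ran from -0.69 to -0.31. The count lower at an unadjusted p under 0.05 was 5 of 17 genes with the median over all probe sets. It was 1 of 24 without the sex term, where 3.3% of all probe sets were lower. With each trained mouse left out it was 5 to 8 of 24, and in the settings with a count in this paragraph 0 were higher. The fits of 1 genotype hold 1 untrained mouse, and no count is given for them. Without the 3 arrays of high GAPDH ratio 1 collagen gene passed for training and 1 for sex, Col3a1 in both, and the interaction median was -0.027. For sex the median was 0.57 without those 3 and 0.60 without the 2 of high actin ratio. The count higher in males at an unadjusted p under 0.05 was 11 of 36 genes without the filter and 3 to 6 of 24 with each mouse left out. The count lower in males was 0 without the filter and 0 to 2 with each mouse left out. The interaction could not be estimated without an untrained mouse. No paired analysis was possible because the labels give no replicate numbers and do not mark littermates per mouse.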
